A study of Canis lupus familiaris with 9 samples.

Results

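The genes described here encode the enzymes that release arachidonic acid and turn it into leukotrienes, lipoxygenase products and prostaglandins, together with the enzyme that makes platelet-activating factor (PAF). A list of 10 gene symbols was matched to the gene symbols of the deposited table, and 8 of them had a row among its 12696 protein coding genes: PLA2G5, PLA2G4A, LPCAT2, ALOX5, ALOX5AP, ALOX15, LTA4H and PTGS2. PTGS1 and PTGES were not analysed here. The members were chosen by name and not by their levels, although earlier results of these data were known. ALOX5AP is an accessory protein rather than an enzyme.

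RNA was sequenced from canine monocyte-derived macrophages in 3 groups of 3 samples. M2 macrophages were exposed for 24 h to IL-4 together with IL-13 (each 20 ng/mL), M1 macrophages received IFN-γ at 20 ng/mL for 24 h, and M0 (resting) macrophages received neither. All 3 groups came from adherent blood monocytes of healthy spayed female beagles about 2 years old, and all were first grown for 7 days with human M-CSF (recombinant, 10 ng/mL), so M0 cells were M-CSF treated rather than untreated. The values are the authors' group means of normalized counts. They carry no error per group and the authors' own p-values were not used, so no standard deviation, standard error or test is given for any gene, and whether a difference exceeded the spread between replicates was not tested. A gene was counted as different between 2 groups when its means differed by at least 2-fold (1 on the log2 scale) and the higher mean was at least 50 normalized counts. Levels are not corrected for gene length and are therefore compared between groups and not between genes.

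Eicosanoids are made on demand. Phospholipase A2 enzymes cut a fatty acid, often arachidonic acid, from membrane phospholipids and leave a lysophospholipid behind. ALOX5, helped by ALOX5AP, turns arachidonic acid into leukotriene A4, which LTA4H converts into the neutrophil attractant leukotriene B4. The cyclooxygenases take the other main branch, to prostaglandins and thromboxane. The lysophospholipid can be acetylated to PAF, a lipid that activates platelets, neutrophils and macrophages, or it can be reacylated into the membrane. Macrophages are known as a source of all of these mediators.

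The group means summed to 27312028 normalized counts in M2, 28039918 in M1 and 26728643 in M0 macrophages, a spread of 1.05-fold. The depth of each sample is unknown from these values. Of the 10 macrophage markers listed, 8 had a row and all 8 reached a mean of 50 in at least 1 group; CD14 and TYROBP were not analysed here. Their summed level was 239599 in M2, 112117 in M1 and 269750 in M0 macrophages, but the markers did not share 1 order. SPI1, the macrophage transcription factor PU.1, averaged 26264 in M2, 23980 in M1 and 23732 in M0 macrophages, and AIF1 averaged 3494 in M2, 4525 in M1 and 3940 in M0 macrophages. The low M1 sum was carried by CSF1R, ITGAM, LYZ, CD163 and MRC1. MRC1 encodes the mannose receptor CD206, which the paper used as an M2 marker, and averaged 33893 in M2, 1355 in M1 and 7046 in M0 macrophages. The sum is therefore not a measure of macrophage content alone. CSF1R, the M-CSF receptor, averaged 53353 in M2, 28338 in M1 and 63804 in M0 macrophages. IDO1 and CXCL10, both known as IFN-γ targets, averaged 104559 and 105296 in M1 macrophages, while the highest of their means in the other groups was 425 (CXCL10 in M2). FCER2, a known IL-4 target, averaged 3735 in M2, 43.3 in M1 and 51.5 in M0 macrophages. It is 1 of 5 genes listed to check the M2 label, and the 5 did not share 1 order. IL13RA2, CD209 and CCL13 were also highest in M2. SOCS1 was highest in M1, at 1727 in M2, 4463 in M1 and 162 in M0 macrophages. CD209 was higher in M1 (710) than in M0 (90.0) as well. The 3 comparisons below share their M2, M1 and M0 means in pairs and are not independent of each other.

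**Figure D1:**
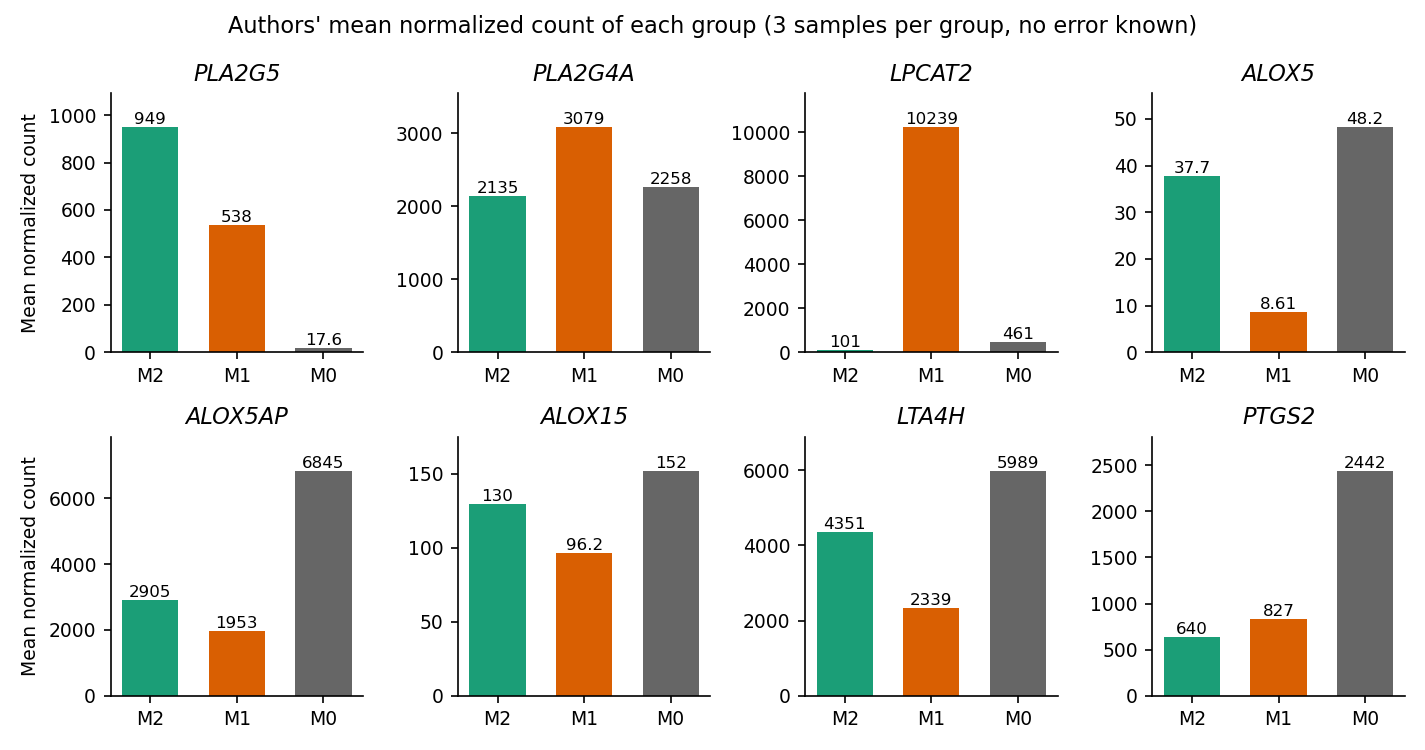
Authors' mean normalized count (vertical axis, linear from 0, own scale per gene) of the 8 genes in M2, M1 and M0 macrophages, 3 samples per group. The bars carry no error because only group means were used. PLA2G5 was low in M0 (17.6), LPCAT2 stood far higher in M1 (10239) than in the other groups, and 5 of the 8 genes had their highest bar in M0.

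The phospholipases come first in the pathway. PLA2G5, a secreted phospholipase A2 that macrophages are known to carry, had the lowest M0 level relative to its other groups among the 8 genes. It averaged 949 normalized counts in M2 and 538 in M1 macrophages, against 17.6 in M0 macrophages. Both cytokine treated groups therefore lay far above the resting cells. The ratio was 53.8-fold for M2 against M0 (log2 5.75) and 30.5-fold for M1 against M0 (log2 4.93). Ratios at least as large were held by 0.0556% of the genes tested in M2 against M0 and by 0.250% in M1 against M0, the gene itself included, as in all such shares below. PLA2G5 reached the minimum of 50 only through M2 and M1, so its M0 mean sets the size of both ratios. M2 and M1 themselves differed by 1.76-fold (log2 0.82), which is within the 2-fold limit.

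PLA2G4A encodes the cytosolic phospholipase A2 that prefers arachidonic acid and moves to membranes when calcium rises. It averaged 2135 normalized counts in M2, 3079 in M1 and 2258 in M0 macrophages. Its log2 ratio was -0.53 for M2 against M1, 0.45 for M1 against M0 and -0.08 for M2 against M0, all within 2-fold. The highest and lowest PLA2G4A means differed by 1.44-fold, close to the median of 1.36-fold over 10902 genes with a mean of at least 50. The secreted and the cytosolic phospholipase thus had different profiles over the same cells.

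LPCAT2 varied most among the 8 genes. It encodes an acyltransferase that makes PAF by acetylating lyso-PAF and that also reacylates lysophosphatidylcholine, and it is known from inflammatory cells including macrophages. LPCAT2 averaged 101 normalized counts in M2, 10239 in M1 and 461 in M0 macrophages. M1 was high, and M2 lay below the resting level. The M1 level was 22.2-fold the M0 level (log2 4.47), and the M2 level was 4.55-fold lower than the M0 level (log2 -2.19). The M2 and M1 means lay 101-fold apart (log2 -6.66 for M2 against M1). Highest and lowest means at least as far apart as those of LPCAT2 were held by 12 of 10902 genes (0.110%).

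ALOX5, the 5-lipoxygenase that opens the leukotriene branch, had low levels throughout. It averaged 37.7 normalized counts in M2, 8.61 in M1 and 48.2 in M0 macrophages. All 3 means were under 50, so ALOX5 was counted in no comparison. Its log2 ratio was 2.13 for M2 against M1 and -2.49 for M1 against M0, and both would pass 2-fold without the minimum.

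ALOX5AP, the membrane protein that presents arachidonic acid to ALOX5, was highest in resting cells. It averaged 2905 normalized counts in M2, 1953 in M1 and 6845 in M0 macrophages. Both treated groups lay more than 2-fold below M0: the M1 level was 3.50-fold lower (log2 -1.81) and the M2 level 2.36-fold lower (log2 -1.24). A ratio of that size was met by 4.96% of genes in M1 against M0 and by 4.37% in M2 against M0. M2 and M1 stayed within 2-fold of each other (log2 0.57).

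LTA4H, which makes leukotriene B4, averaged 4351 normalized counts in M2, 2339 in M1 and 5989 in M0 macrophages. The M1 level was 2.56-fold lower than the M0 level (log2 -1.36). M2 lay between the other groups, with log2 ratios of 0.90 against M1 and -0.46 against M0 that did not reach 2-fold. ALOX15 encodes the 15-lipoxygenase, an enzyme that IL-4 is known to induce in human monocytes. In these canine cells it averaged 130 normalized counts in M2, 96.2 in M1 and 152 in M0 macrophages. Every ALOX15 ratio was within 2-fold (log2 0.43 for M2 against M1, -0.66 for M1 against M0 and -0.23 for M2 against M0).

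PTGS2, the inducible cyclooxygenase, was also highest in resting cells. It averaged 640 normalized counts in M2, 827 in M1 and 2442 in M0 macrophages. The M1 level was 2.95-fold lower (log2 -1.56) and the M2 level 3.82-fold lower (log2 -1.93) than the M0 level, while M2 and M1 were within 2-fold (log2 -0.37). A ratio as large as that of PTGS2 was met by 6.54% of genes in M1 against M0 and by 1.83% in M2 against M0. PTGS2 was the only one of the 8 genes with the order M0, M1, M2 from high to low, an order held by 8.78% of 10902 genes.

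**Figure D2:**
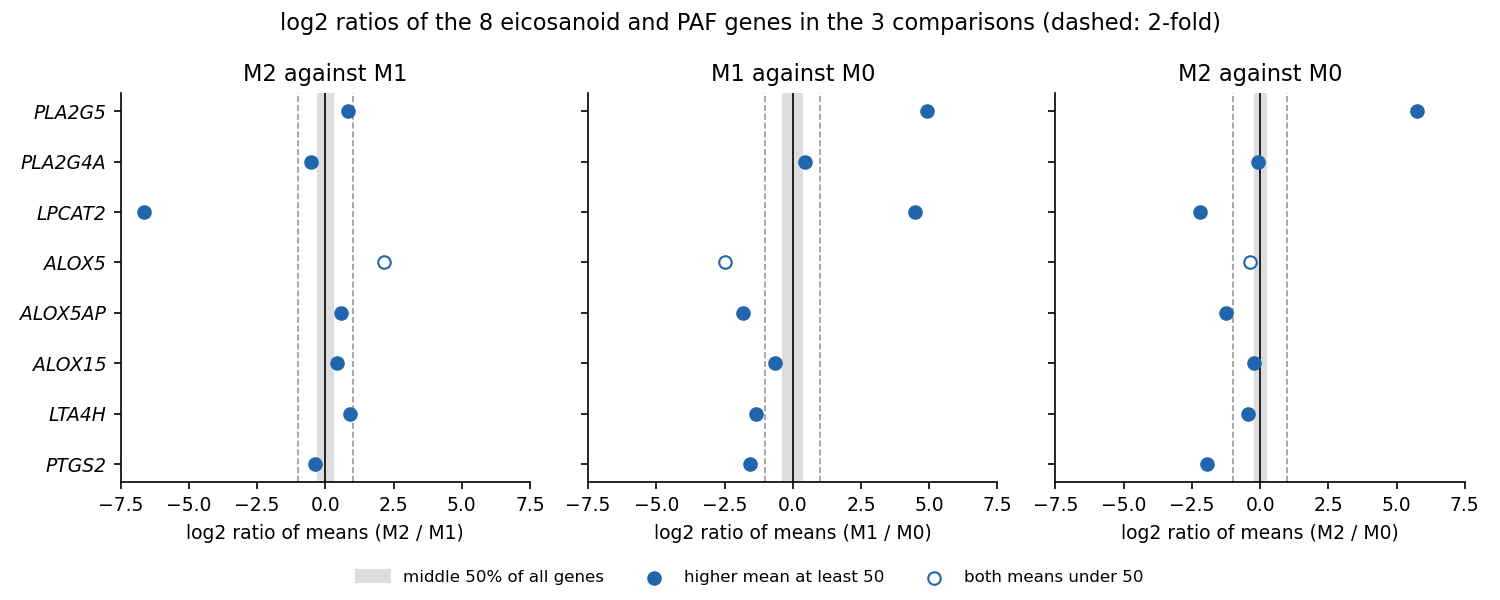
log2 ratio of the authors' group means (horizontal axis) for the 8 genes in M2 against M1, M1 against M0 and M2 against M0. Filled points have a higher mean of at least 50 normalized counts, open points (ALOX5) do not, dashed lines mark 2-fold and the grey band holds the middle 50% of all genes tested. Among the filled points LPCAT2 stands alone past 2-fold in M2 against M1 at -6.66, and PLA2G5 lies at 4.93 and 5.75 against M0. The open point of ALOX5 lies at 2.13 in M2 against M1.

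In M2 against M1, the comparison of the 2 polarized states, 7 of the 8 genes had a mean of at least 50 in at least 1 of these groups. Of these, 1 was counted as different, LPCAT2, which was lower in M2. Among all 10737 genes tested, 12.7% were past 2-fold: 7.0% were higher in M2 and 5.72% lower. The median log2 ratio was 0.43 over these 7 genes (0.50 with ALOX5), against -0.0027 over all genes tested. The genes nearest to the limit on its inner side were LTA4H (log2 0.90) and PLA2G5 (log2 0.82), both higher in M2.

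In M1 against M0, which compares IFN-γ treatment with the resting state, 5 of the 7 genes that reached the minimum were counted. PLA2G5 and LPCAT2 were higher in M1, and LTA4H, ALOX5AP and PTGS2 were lower. Over all 10790 genes tested 14.3% were past 2-fold, 5.56% higher in M1 and 8.77% lower. The median log2 ratio was -0.66 over these 7 genes (-1.01 with ALOX5), against 0.014 over all genes tested. PLA2G4A and ALOX15 were within 2-fold.

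In M2 against M0, which compares IL-4 and IL-13 treatment with the resting state, 4 of the 7 genes that reached the minimum were counted. PLA2G5 was higher in M2, and ALOX5AP, PTGS2 and LPCAT2 were lower. Over all 10787 genes tested 6.49% were past 2-fold, 2.99% higher in M2 and 3.49% lower. The median log2 ratio was -0.46 over these 7 genes (-0.41 with ALOX5), against 0.021 over all genes tested. PLA2G4A, ALOX15 and LTA4H were within 2-fold.

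Ordered by level, ALOX5, ALOX5AP, ALOX15 and LTA4H all had M0 first, M2 next and M1 last. That order was held by 23.5% of the 10902 genes with a mean of at least 50, among which ALOX5 is not counted. These are the lipoxygenase and leukotriene members of the list. M2 and M1 were within 2-fold of each other for ALOX5AP, ALOX15 and LTA4H. M0 lay above M2 by only 1.17-fold in ALOX15, 1.28-fold in ALOX5 and 1.38-fold in LTA4H, and by 2.36-fold in ALOX5AP. The shared order thus rests mostly on steps that were not counted as different. PLA2G4A and LPCAT2 shared the order M1, M0, M2 (14.6% of genes), although LPCAT2 spanned 101-fold and PLA2G4A 1.44-fold. PLA2G5 alone had the order M2, M1, M0 (9.87% of genes). A highest mean in M0 was seen in 5 of the 8 genes, 1 of them ALOX5, and in 32.2% of those 10902 genes.

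Markers of other cell types that blood-derived cultures could hold were read beside these levels. In bulk RNA, fewer cells of a type and less RNA per cell cannot be told apart. For mast cells and basophils 2 of 6 markers had a row, and their summed level was 2384 in M2, 20.2 in M1 and 221 in M0 macrophages. It was carried by MS4A2, an Fc receptor chain, at 2240 in M2, while KIT, CPA3, HDC and TPSAB1 were not analysed here. This sum was highest in M2, as PLA2G5 was, but it was lower in M1 than in M0 and PLA2G5 was not. The part of these cells in the PLA2G5 level was not tested.

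For neutrophils 2 of 5 markers had a row (CSF3R and S100A12), with a sum of 116 in M2, 386 in M1 and 894 in M0 macrophages. Both were highest in M0 but differed in the lowest group. CSF3R averaged 92.9 in M2, 376 in M1 and 664 in M0 macrophages. S100A12 averaged 23.0 in M2, 10.2 in M1 and 230 in M0 macrophages. PTGS2, ALOX5AP and LTA4H were also highest in M0, and the part of neutrophils in those levels was not tested. For T and NK cells all 5 markers had a row, with a sum of 1213 in M2, 5242 in M1 and 1459 in M0 macrophages, carried in M1 by CD2 at 5032. The other T cell markers were low, CD3E at 88.8 and LCK at 87.6 in M1 against 92.8 and 88.7 in M0. LPCAT2 was highest in M1 as well, and the part of T cells in its level was not tested. Of the 8 macrophage markers, 6 were lowest in M1, as ALOX5AP, LTA4H and ALOX5 were, whereas SPI1 and AIF1 were not. Those 6 include MRC1, a polarization marker of the paper, so they do not measure macrophage content alone. The part of macrophage content in those results was likewise not tested.

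For platelets 2 of 6 markers had a row, with a sum of 752 in M2, 286 in M1 and 394 in M0 macrophages that was nearly all ITGB3. ITGA2B was under 50 throughout, at 35.2 in M2, 42.8 in M1 and 40.2 in M0 macrophages. For eosinophils, known in humans for high ALOX15, 1 of 5 markers had a row, EPX at 41.3 in M2, 28.3 in M1 and 45.6 in M0 macrophages, under 50 in every group. For B cells all 5 markers had a row, and their sum was 12242 in M2, 9991 in M1 and 10682 in M0 macrophages, nearly all of it CD79A. For fibroblasts and endothelium 3 of 5 markers had a row, and they did not share 1 order. PDGFRB of fibroblasts averaged 159 in M2, 466 in M1 and 125 in M0 macrophages, whereas the endothelial markers PECAM1 (75.8 in M2, 34.2 in M1 and 111 in M0) and VWF (58.7 in M2, 14.7 in M1 and 70.1 in M0) were lowest in M1. Their sum was 294 in M2, 515 in M1 and 307 in M0 macrophages.

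The wider pathway was read from a list of 83 further genes, of which 47 had a row. Of these, 7 had all means under 50, and 19 of the other 40 were past 2-fold in at least 1 comparison, against 19.7% of 10902 genes with a mean of at least 50. In M2 against M1, 10 of the 40 that reached the minimum were higher, 5 were lower and 25 were within 2-fold (7.0% and 5.72% of all genes tested were higher and lower). In M1 against M0 it was 6 higher and 6 lower of 39 (5.56% and 8.77% of all genes). In M2 against M0 it was 3 higher and 4 lower of 38 (2.99% and 3.49% of all genes). The median log2 ratios were 0.19, -0.23 and -0.05 in the same order of comparisons.

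Other enzymes that release arachidonic acid or its precursors had 9 rows of 20 listed. PLA2G2F, a secreted phospholipase A2, averaged 105 normalized counts in M2 and 91.0 in M1 macrophages, against 2.74 in M0 macrophages, so it had the same order as PLA2G5 and was past 2-fold against M0 in both treated groups. Its M0 mean was so low that the size of its ratios carries little weight. PNPLA8, a calcium-independent phospholipase, averaged 3811 in M2 and 1680 in M1 macrophages (log2 1.18). MGLL, which hydrolyses monoacylglycerol and can supply arachidonic acid, averaged 960 in M2 and 328 in M1 macrophages (log2 1.55). These 2 genes were the only ones of the group past 2-fold in M2 against M1, both higher in M2.

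Against the resting state the release group split. DAGLA, a diacylglycerol lipase, averaged 555 in M1 and 209 in M0 macrophages (log2 1.41). PLA2G6, another calcium-independent phospholipase, averaged 347 in M1 and 714 in M0 macrophages (log2 -1.04). PLA2G15, a lysosomal phospholipase, averaged 486 in M2 and 1342 in M0 macrophages (log2 -1.46).

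On the PAF side, LPCAT2 was the one acyltransferase past 2-fold: LPCAT1, LPCAT3, LPCAT4, MBOAT7 and ACSL4, which reacylate lysophospholipids or activate arachidonic acid for it, were all within 2-fold in the 3 comparisons. LPCAT1, which can also make PAF, averaged 4318 in M2, 3099 in M1 and 3630 in M0 macrophages. PLA2G7, the secreted PAF acetylhydrolase that inactivates PAF, averaged 24713 in M2, 10619 in M1 and 17248 in M0 macrophages. It was higher in M2 than in M1 (log2 1.22), the opposite direction to LPCAT2, and within 2-fold against M0. The other 4 PAF acetylhydrolase genes were within 2-fold. PTAFR, the PAF receptor, averaged 1646 in M2, 2104 in M1 and 1797 in M0 macrophages, also within 2-fold.

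**Figure D3:**
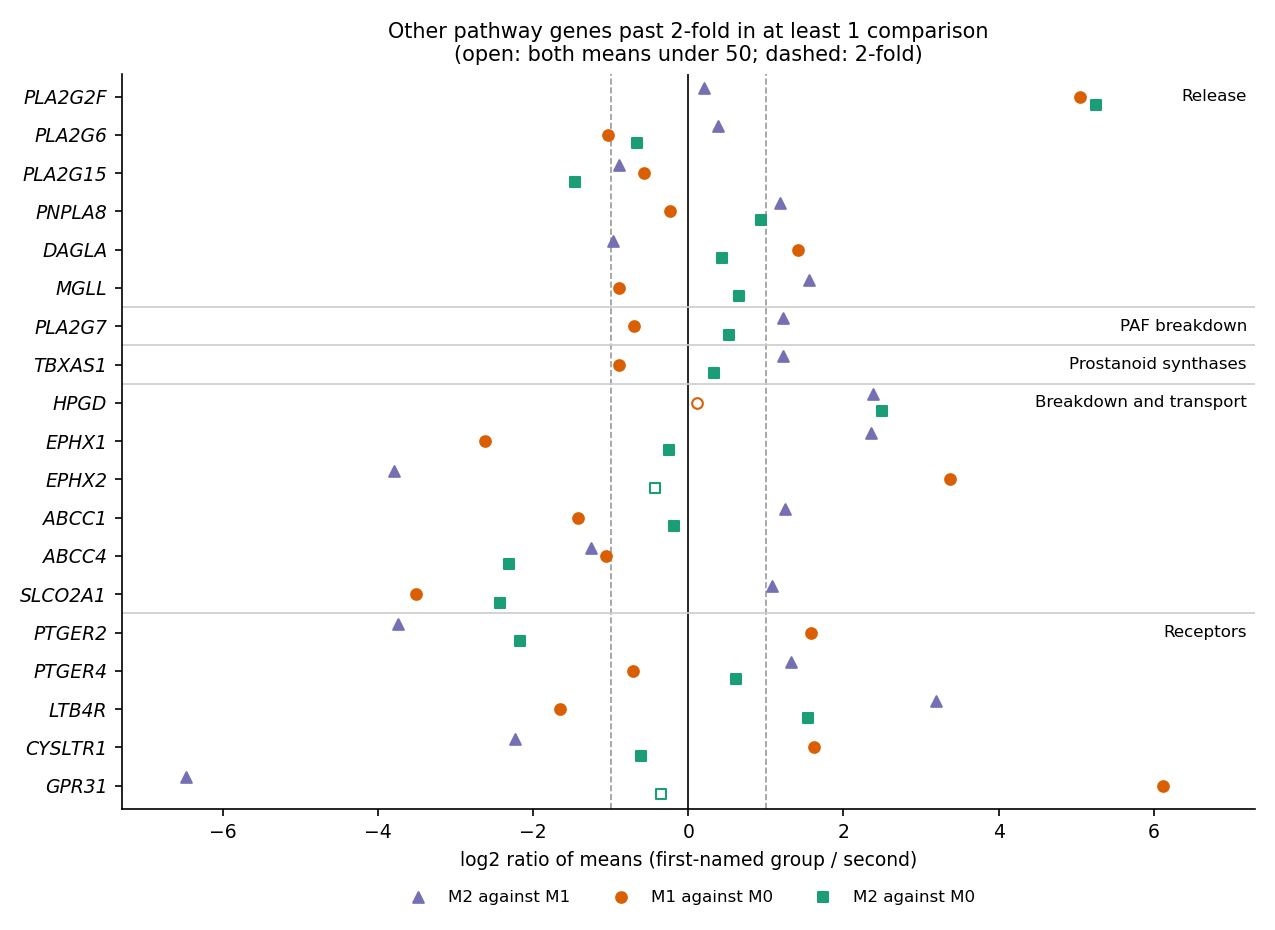
log2 ratio of the authors' group means (horizontal axis) for the 19 further pathway genes past 2-fold in at least 1 comparison, grouped by role. Triangles are M2 against M1, circles M1 against M0 and squares M2 against M0, open symbols have both means under 50, and dashed lines mark 2-fold. GPR31 lies farthest out, at -6.48 for M2 against M1 and 6.12 for M1 against M0.

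Beyond the first step of the leukotriene branch few genes could be read. Of 12 further lipoxygenase and leukotriene genes 4 had a row and 2 reached the minimum, and neither was past 2-fold. ALOX15B, the second 15-lipoxygenase, averaged 9.98 in M2, 10.4 in M1 and 38.5 in M0 macrophages, under 50 throughout. Of the prostanoid synthases 4 of 11 had a row. TBXAS1, which makes thromboxane A2 from the cyclooxygenase product, averaged 30295 in M2, 12970 in M1 and 24000 in M0 macrophages. TBXAS1 was higher in M2 than in M1 (log2 1.22) and within 2-fold against M0, so it did not share the M0 maximum of PTGS2. PTGES2, a prostaglandin E synthase, averaged 368 in M2, 359 in M1 and 246 in M0 macrophages.

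Of the genes for breakdown and transport 8 of 11 had a row, and 6 of these were past 2-fold in at least 1 comparison, beside the 19.7% of all genes given above. HPGD, which inactivates prostaglandins, averaged 83.8 in M2, 16.1 in M1 and 14.9 in M0 macrophages, so it reached 50 in M2 alone. EPHX1 and EPHX2 encode the microsomal and the soluble epoxide hydrolase and had opposite profiles. EPHX1 averaged 2202 in M2, 429 in M1 and 2626 in M0 macrophages, so it was low in M1. EPHX2 averaged 15.1 in M2, 210 in M1 and 20.4 in M0 macrophages, so it reached 50 in M1 alone.

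SLCO2A1, the prostaglandin transporter that carries prostaglandins into cells, averaged 236 in M2, 111 in M1 and 1265 in M0 macrophages. Like PTGS2 it was more than 2-fold lower in both treated groups than in M0 (log2 -2.42 for M2 and -3.50 for M1). ABCC4, which exports prostaglandins, averaged 50.7 in M2, 121 in M1 and 251 in M0 macrophages and had the same direction. ABCC1, which exports leukotriene C4, averaged 4402 in M2, 1864 in M1 and 5013 in M0 macrophages. M1 was the low group, as it was for LTA4H.

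The receptors had 12 rows of 19 listed, 9 of which reached 50 in some group, and 5 were past 2-fold in at least 1 comparison, beside the same 19.7%. PTGER2 and PTGER4 are the prostaglandin E2 receptors that raise cyclic AMP, and they went opposite ways between M2 and M1. PTGER2 averaged 251 in M2, 3368 in M1 and 1123 in M0 macrophages (log2 -3.75 for M2 against M1). PTGER4 averaged 9265 in M2, 3700 in M1 and 6055 in M0 macrophages (log2 1.32 for M2 against M1). Of the leukotriene receptors, LTB4R, the high-affinity receptor for the product of LTA4H, averaged 417 in M2, 45.5 in M1 and 143 in M0 macrophages. It was higher in M2 than in either other group and lower in M1 than in M0. CYSLTR1, a receptor for the cysteinyl leukotrienes, averaged 162 in M2, 765 in M1 and 248 in M0 macrophages, with M1 the high group.

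GPR31, known in humans as a receptor for a 12-lipoxygenase product, averaged 36.8 in M2, 3276 in M1 and 47.1 in M0 macrophages. Only M1 lay above 50. Its log2 ratio was -6.48 for M2 against M1, a size reached by 0.140% of genes, beside -6.66 for LPCAT2.

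For the members whose highest and lowest means differed by 4-fold or more, the 2 named genes with the most similar profile were looked up among 9704 genes, by the Euclidean distance over the log2 ratios M1 against M0 and M2 against M0. Each profile consists of 3 group means, so likeness here is a loose measure. PLA2G5 was nearest to PLA2G2F (distance 0.509) and to TMLHE, an enzyme of carnitine synthesis (0.576). TMLHE averaged 267 in M2, 108 in M1 and 3.34 in M0 macrophages. PLA2G5 and PLA2G2F were also far under 50 in M0, at 17.6 and 2.74. Low M0 means thus set the ratios behind these distances, which carry little weight. LPCAT2 was nearest to CD28, a T cell co-stimulatory receptor (0.699), and to MCTP1, a calcium-binding membrane protein (0.927). CD28 averaged 26.7 in M2, 2052 in M1 and 77.4 in M0 macrophages. ALOX5 was nearest to RGS11 (0.067) and to ADAM8, a membrane metalloprotease (0.071), with ADAM8 averaging 7644 in M2, 1702 in M1 and 9334 in M0 macrophages. All ALOX5 means were under 50, so these small distances carry little weight. With a pseudocount of 10 its log2 ratio for M1 against M0 went from -2.49 to -1.65.

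Positions were read only as gene order, in the RefSeq annotation of another dog assembly, where 9 of the 10 listed symbols matched. PLA2G5 lies within a row of secreted phospholipase genes, between PLA2G2D and PLA2G2E, with PLA2G2F close by. OTUD3, on the far side of PLA2G2E, averaged 621 in M2, 698 in M1 and 657 in M0 macrophages and did not share the PLA2G5 profile. PTGS2 and PLA2G4A are direct neighbours, although PTGS2 was past 2-fold against M0 in both treated groups and PLA2G4A in neither. Near LPCAT2 lies MMP2, a gelatinase, which averaged 4.13 in M2, 74.7 in M1 and 12.5 in M0 macrophages, with M1 high as for LPCAT2. Whether related or neighbouring genes shared reads could not be checked, since only group means were used. The strand setting of the counting is also not given in the sources used here.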

How the data were processed

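Sources for the library and read steps were the labels and the study's methods: poly-A selected RNA, reads aligned to the CanFam3.1 assembly by STAR (version 2.7.3a, run in Partek Flow), and HTSeq counts per gene. The values used are signal values that the authors deposited: least squares means per group, after DESeq2 normalization, of 3 samples each. The deposited table also holds the authors' ratios, fold changes, log2 ratios, p-values and false discovery rates, which were not used, and 3 shorter tables were not used. Of its genes, 1762 carry an identifier without a gene name.

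Ratios of the group means were computed with Python 3.11.15, numpy 2.4.6 and pandas 2.3.3, without a pseudocount, and plotted with matplotlib 3.10.9. The arithmetic of the call was checked on simulated means with 200 planted genes. These means held no noise, so the check does not show how reliable a call is. No test was run, since values per sample were not used and the authors' p-values were left out as their own results, and the precision of the means was not estimated. The text names all members present, each further pathway gene past 2-fold in any comparison, and for members spanning at least 4-fold the 2 nearest named genes. Other genes named (LPCAT1, PTAFR, ALOX15B, PTGES2, markers and neighbours) were chosen after their values were seen or by list. The members, lists, thresholds and alternatives were chosen with earlier results of these data known. The alternatives were another fold limit, minimum, pseudocount and scaling.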

Additional observations from a re-analysis of the deposited data

How the results depend on the processing

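With a 1.5-fold limit the count of members different in M2 against M1 was 3 (PLA2G5, LTA4H and LPCAT2, where 24.8% of all genes passed), with no minimum mean it was 2 (ALOX5 and LPCAT2, 14.6% of all genes), against 1 as reported. Counts for M1 against M0 and M2 against M0 stayed within 1.5 times under each alternative, but their members changed. With at least 50 in both groups PLA2G5 was no longer counted against M0. With a log2 limit of 1.5, LTA4H was lost from M1 against M0 (4 members, 7.08% of all genes). ALOX5AP was lost from M2 against M0 (3 members, 2.97% of all genes). In M1 against M0 the 1.5-fold limit added ALOX15, and leaving out the minimum added ALOX5. Of 72 log2 ratios recomputed with a pseudocount of 10, equal totals or centring on the median of all genes, none changed sign and 4 moved by more than 1.5-fold, all with the pseudocount: ALOX5 to 1.36 in M2 against M1 and -1.65 in M1 against M0, and PLA2G5 to 4.31 in M1 against M0 and 5.12 in M2 against M0. A pseudocount shrinks the ratios of low means by construction. No paired analysis was possible because the columns are group means without replicate numbers, and for the same reason no replicate could be left out. The search for promoter motifs was not run.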
